A study of Mus musculus with 2 samples.

Results

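The genes described here encode 9 proteins that hepatocytes make in quantity, read in RNA of mouse brain. They are the cytochrome P450 enzymes Cyp2e1 and Cyp3a11, the urea cycle enzymes Cps1, Ass1 and Arg1, the tyrosine-degrading enzymes Tat and Hpd, the alcohol dehydrogenase Adh1 and the liver fatty acid binding protein Fabp1. They were picked by name, with earlier values of these arrays known, out of 20660 genes that the array's accessions name. Their difference between genotypes is part of how they were picked, so it is given as a description with no test. Male mice on the C57Bl/6 N background were studied at 12 weeks of age. One genotype, Il18-/-, lacks the inflammatory cytokine interleukin-18, and the other, Il18+/+, is the wild type. Each genotype is represented by 1 pool of total RNA from 7 mice, read on 1 one-colour Agilent array. No difference therefore has a replicate check, and precision is limited by having a single array a genotype. The labels give hippocampus as the tissue, while the RNA extraction text and a line of the design name prefrontal cortex.

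In liver these proteins handle small molecules. Cps1, Ass1 and Arg1 act in the cycle that turns ammonia into urea, Cps1 at its entry step, Ass1 at the joining of citrulline and aspartate, and Arg1 at the release of urea. Tat and Hpd act early in the breakdown of tyrosine. Cyp2e1 oxidises ethanol and other small solvents, Cyp3a11 oxidises many drugs and steroids, Adh1 oxidises alcohols including retinol, and Fabp1 carries fatty acids in the cytosol. Several of them are also made outside the liver: Ass1 is used in many tissues, the brain included, to recycle citrulline into arginine, and Arg1 is a marker of some activated macrophages.

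On the Il18-/- array 65.4% of 55681 probes were well above background, the scanner software's call, against 67.2% on the Il18+/+ array. All 12 genes of a list of neuronal and glial markers, among them Snap25, Gfap, Mbp and the dentate gyrus and CA1 markers Prox1 and Wfs1, were well above background on both arrays. Of all 20660 named genes 20.8% were well above background on neither array. The single probe of Il18 read an intensity of 654.9 in Il18-/- and 1798 in Il18+/+, which differ by -1.49 on the log2 scale. Its place in the transcript, inside or outside the deleted stretch, was not given in the sources used here, so it does not check the genotype. A level below is the log2 intensity minus that of the array's 75th percentile, and a difference is Il18-/- minus Il18+/+. A gene counts as measured if some probe of it passed the background call in both genotypes, which held for 15737 genes with a median difference of 0.01. The error beside a single value is the scanner software's own estimate for that spot, and the error beside a difference (technical SE) is computed from those estimates. Both leave out differences between animals and between pools.

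Fabp1 and the brighter of 2 Cyp2e1 probes were well above background in both genotypes and read higher in Il18-/-. The dimmer Cyp2e1 probe and 1 of the 2 Cyp3a11 probes passed the background call in Il18-/- only, so nothing is read from their direction. Ass1, Tat and the other Cyp3a11 probe differed by less than the technical SE, and Adh1 read 1.28-fold higher in Il18-/-. Cps1, Arg1 and Hpd were not well above background in either. All 9 genes had a probe, 12 in all and 1 spot each, and 7 of these probes were well above background on both arrays, which measured 6 genes. Of the 6, 2 reached 2-fold higher in Il18-/- and 4 lay within 1.5-fold of Il18+/+. Cyp3a11 is among the 4 through only 1 of its probes, and without it 3 of 5 lay within 1.5-fold. Over all measured genes, 0.642% reached 2-fold higher and 1.68% reached 1.5-fold higher, while 0.451% reached 2-fold lower and 2.57% reached 1.5-fold lower. Since the genes were picked with these readings known, nothing is read from that contrast.

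Promoter windows are shown first, for Fabp1 and Cyp2e1, which were measured at least 2-fold higher in Il18-/-, and for Cyp3a11, whose 2 probes disagreed. The window of Ass1, whose 2 probes gave nearly the same difference, is shown beside them. RefSeq windows of 300 bases (GRCm38.p6), with the annotated start at base 251, were given for 7 of the 9 genes, all but Cps1 and Arg1. Capitals mark matches on either strand to 5 motifs. The TATA box is spelled TATAAA. The HNF4 string, a site of a liver transcription factor, is CAAAGTCCA, and the core bound by forkhead factors is TGTTTNC. The C/EBP string is TTGCNNAA and the GC box is GGGCGG. In Fabp1 the forkhead and C/EBP matches overlap and appear as 1 run of capitals. The windows are Fabp1 at chr6:71199629-71199928 (plus strand), Cyp2e1 at chr7:140763569-140763868 (plus strand), Cyp3a11 at chr5:145879805-145880104 (minus strand) and Ass1 at chr2:31470020-31470319 (plus strand).
Fabp1: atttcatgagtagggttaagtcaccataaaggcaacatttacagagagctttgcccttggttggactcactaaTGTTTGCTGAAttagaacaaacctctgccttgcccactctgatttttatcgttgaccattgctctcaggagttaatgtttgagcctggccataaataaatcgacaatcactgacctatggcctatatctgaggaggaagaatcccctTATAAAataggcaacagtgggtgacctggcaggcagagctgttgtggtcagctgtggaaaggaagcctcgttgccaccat
Cyp2e1: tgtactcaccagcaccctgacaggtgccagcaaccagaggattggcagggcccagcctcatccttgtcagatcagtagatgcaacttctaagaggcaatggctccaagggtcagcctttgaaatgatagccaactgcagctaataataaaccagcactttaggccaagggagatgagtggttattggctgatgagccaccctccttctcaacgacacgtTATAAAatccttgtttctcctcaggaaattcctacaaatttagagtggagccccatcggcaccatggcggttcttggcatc
Cyp3a11: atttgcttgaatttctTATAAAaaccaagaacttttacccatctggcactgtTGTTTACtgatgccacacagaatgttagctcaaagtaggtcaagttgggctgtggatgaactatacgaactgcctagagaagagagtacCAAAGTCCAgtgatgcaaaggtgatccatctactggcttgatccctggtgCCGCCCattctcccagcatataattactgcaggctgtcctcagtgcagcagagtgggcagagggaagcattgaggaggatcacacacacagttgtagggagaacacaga
Ass1: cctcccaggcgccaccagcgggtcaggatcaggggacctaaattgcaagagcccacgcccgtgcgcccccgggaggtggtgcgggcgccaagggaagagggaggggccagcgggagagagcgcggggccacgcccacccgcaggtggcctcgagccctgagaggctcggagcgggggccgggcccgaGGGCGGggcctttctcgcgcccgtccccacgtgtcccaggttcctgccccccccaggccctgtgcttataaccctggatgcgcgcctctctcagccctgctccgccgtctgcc

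The TATA box string occurs in 3 of the 7 windows, those of Fabp1, Cyp2e1 and Cyp3a11. It begins 30 bases before the annotated start in Fabp1 and 31 bases before it in Cyp2e1, but 234 bases before it in Cyp3a11. It is held by 13.6% of all 32851 windows. The Fabp1 window also holds the C/EBP string, which 10.8% of all windows hold, and the forkhead string, which 20.5% hold. The Cyp3a11 window holds the HNF4 string, found in 0.475% of all windows, the forkhead string and a GC box. The Ass1 window is 74.0% G and C with 27 CpG dinucleotides, against 45.0% and 3 in Fabp1, 49.7% and 4 in Cyp2e1, and a median of 52.7% and 7 over all windows. Tat holds none of the 5 motifs, Adh1 holds the forkhead string only and Hpd the GC box only, which 35.7% of all windows hold. The motifs were chosen after the sequences had been seen. The genes were picked with their differences known, the measured Cyp3a11 probe differed by -0.17, and Hpd was not measured. Nothing is therefore read from which windows hold a string. A match is a string of letters and not evidence that a factor binds, and the absence of a match says nothing about the factor.

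Fabp1, the cytosolic fatty acid carrier of liver and gut, had the largest difference among the 6 measured genes. Its probe read 398.7 ± 40.0 in Il18-/- and 48.5 ± 5.75 in Il18+/+ (intensity, software error). As levels these are -0.83 in Il18-/- and -3.84 in Il18+/+, a difference of 3.01 (technical SE 0.22) or 8.04-fold higher. The signal was well above background in both genotypes. Of the other fatty acid binding protein genes, Fabp7, made by radial glia and astrocytes, differed by 0.25, Fabp5 by 0.14 and Fabp3 by 0.11. Fabp4, the adipocyte and macrophage member, was well above background in Il18-/- only, at least 1.71-fold higher. Of the 9 genes of the family 5 were measured, and Fabp1 was the only one of them past 1.5-fold in either direction.

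Cyp2e1 was read by 2 probes, of which only the brighter was well above background in both genotypes. The brighter, A_55_P1999301, read 181.3 ± 18.5 in Il18-/- and 48.4 ± 5.80 in Il18+/+, a difference of 1.88 (technical SE 0.23) or 3.67-fold higher. The dimmer, A_55_P1966690, read 39.2 ± 5.66 in Il18-/- and 14.1 ± 4.17 in Il18+/+. It was not well above background in Il18+/+, so its difference is a bound of at least 2.61-fold higher, set against the lowest signal well above background on the Il18+/+ array, an intensity of 14.7. All bounds here are set against this signal or the dim probe's own, whichever is higher. They leave out the software error of the brighter signal, so they are not statistical limits. They hold for the processed signal only: starting from the median spot signal, the dimmer Cyp2e1 probe was 1.18-fold higher with normexp background correction and 1.28-fold with none. Every probe given a bound passed the background call on 1 array only, so nothing is read from its direction.

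The 2 Cyp3a11 probes disagreed. A_55_P2121225 read 94.6 ± 10.4 in Il18-/- and 6.93 ± 4.16 in Il18+/+, where it was not well above background, which makes it at least 6.30-fold higher in Il18-/- by the processed signal, but 2.03-fold with normexp and 2.54-fold with no background correction. A_51_P355301 read 188.8 ± 19.2 in Il18-/- and 208.6 ± 21.1 in Il18+/+, a difference of -0.17 (technical SE 0.21), within the software error. Only the second was measured on both arrays, so the gene enters the counts and medians here with -0.17, while the mean over both probes, with no filter on dim signals, was 1.78. Cyp3a genes are a family of close copies, so which of them each probe read is uncertain. The summary values over the genes are therefore also given without Cyp3a11. Of its relatives, Cyp3a13 was measured and Cyp3a25 was not well above background in either genotype.

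**Figure D1:**
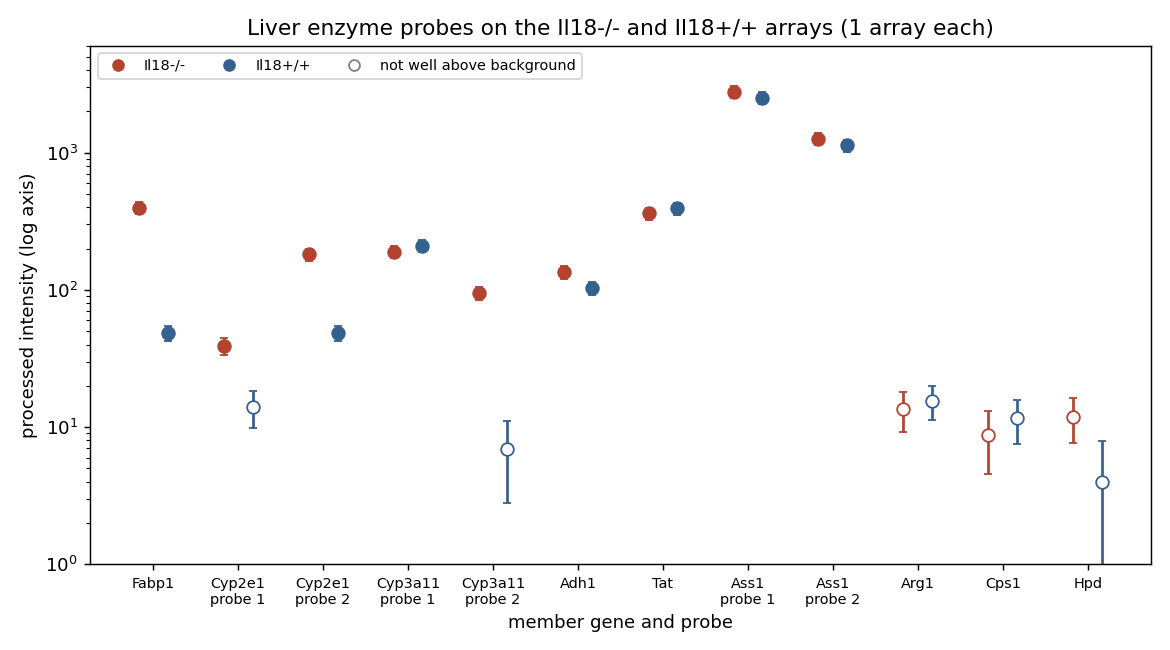
Processed intensity (log axis) of the 12 probes of the 9 liver enzyme and carrier genes, Il18-/- in red and Il18+/+ in blue, 1 array each. Bars are the scanner software's error for the spot, cut off at the foot of the axis for Hpd in Il18+/+, and open points were not well above background. Fabp1 and Cyp2e1 probe 2 stand higher in Il18-/-. Cyp2e1 probe 1 and Cyp3a11 probe 2 passed the background call in Il18-/- only, so nothing is read from their direction. Cyp3a11 probe 1, Tat and both Ass1 probes differ by less than their technical SE and Adh1 stands 0.36 higher on the log2 scale.

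Adh1, Tat and Ass1 gave signals well above background in both genotypes with differences under 1.5-fold. Adh1 read 134.9 ± 14.1 in Il18-/- and 102.9 ± 11.0 in Il18+/+, a difference of 0.36 (technical SE 0.22). That is 1.28-fold and larger than its technical SE. It lay above 0.33, the 95th percentile of the differences of all measured genes. The gene was picked with its value known, so nothing is read from that rank. Tat read 362.2 ± 36.5 in Il18-/- and 393.4 ± 39.5 in Il18+/+, a difference of -0.15 (technical SE 0.21). The Ass1 probe A_55_P2004781 read 2774 ± 277.4 in Il18-/- and 2506 ± 250.6 in Il18+/+. The other, A_55_P2143070, read 1255 ± 125.6 in Il18-/- and 1131 ± 113.2 in Il18+/+. The Ass1 probes gave the same difference of 0.12 (technical SE 0.20 each). The Tat and Ass1 differences were smaller than their technical SE.

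Cps1, Arg1 and Hpd were not well above background on either array, as were 20.8% of all 20660 named genes. Cps1 read 8.84 ± 4.26 in Il18-/- and 11.6 ± 4.08 in Il18+/+. Arg1 read 13.7 ± 4.46 in Il18-/- and 15.5 ± 4.30 in Il18+/+, next to the lowest signals called well above background, 15.6 for Il18-/- and 14.7 for Il18+/+. Hpd read 12.0 ± 4.32 in Il18-/- and 3.97 ± 3.99 in Il18+/+. The negative control spots of the arrays had a median of 3.82 and a 99th percentile of 17.4 in Il18-/-, and 3.49 and 4.60 in Il18+/+. In Il18-/- all 3 genes thus read below that percentile, and in Il18+/+ Cps1 and Arg1 read above it and Hpd below it. No fold is given for these 3 genes, and a difference in them was not detectable at these signals. Fabp4, Cyp2c29, Pck1 and Slc5a2, well above background in Il18-/- only, read 22.7 to 25.6 there, not far above the 17.4 of the negative controls.

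Most measured genes of the urea cycle, tyrosine and dehydrogenase lists differed by less than 1.5-fold, as did most measured genes of the array. Over all measured genes 1.68% reached 1.5-fold higher and 2.57% reached 1.5-fold lower. No result about these pathways is therefore read from the counts. Of 9 urea cycle genes 5 were measured, with 0 at least 1.5-fold higher, 1 at least 1.5-fold lower and a median difference of -0.04. The one lower gene was Slc25a13, the mitochondrial aspartate-glutamate carrier, which read 161.2 in Il18-/- and 267.3 in Il18+/+, a difference of -0.76. Slc25a15, the ornithine carrier, differed by -0.42 and Arg2, the mitochondrial arginase, by 0.11. Otc and Nags, which act beside Cps1 in mitochondria, were not well above background in either genotype.

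Of 8 genes of phenylalanine and tyrosine breakdown 5 were measured, none of them past 1.5-fold in either direction, with a median difference of 0.09. Pcbd1, which recycles the pterin cofactor, differed by 0.24 and Gstz1, which acts near the end of the pathway, by 0.14. Hgd, which acts after Hpd, was not well above background in either genotype. Among 11 alcohol and aldehyde dehydrogenase genes 8 were measured, again none past 1.5-fold, with a median of 0.03. The shares of all measured genes past 1.5-fold, given above, apply to both lists. Aldh8a1 differed by 0.26 and Aldh2, the mitochondrial acetaldehyde dehydrogenase, by -0.26. Adh4, Adh6a and Adh7 were not well above background in either genotype.

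The cytochrome P450 list, set like the others with earlier values of these arrays known, includes Cyp2e1 and Cyp3a11. Of its 21 genes 12 were measured, 5 of them at least 1.5-fold and 4 at least 2-fold higher in Il18-/-. Over all measured genes 1.68% and 0.642% reached these folds, and the difference from these shares was not tested. None reached 1.5-fold lower, with a median difference of 0.28. Besides Cyp2e1, Cyp2f2 read 192.0 in Il18-/- and 60.9 in Il18+/+, 3.09-fold higher. Cyp2d10 read 80.2 in Il18-/- and 31.8 in Il18+/+, 2.47-fold higher, and Cyp2d26 read 154.5 in Il18-/- and 71.5 in Il18+/+, 2.11-fold higher. Cyp2c29 was well above background in Il18-/- only, at least 1.67-fold higher. Cyp2c and Cyp2d genes also have close copies, so the single gene is uncertain. Cyp1a2, Cyp7a1, Cyp8b1 and Cyp27a1, of drug and bile acid metabolism, were not well above background in either genotype.

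Single genes of other liver pathways read higher too. Fbp1, the fructose bisphosphatase of gluconeogenesis, read 139.5 in Il18-/- and 67.3 in Il18+/+, 2.03-fold higher. Pck1, which starts gluconeogenesis, was well above background in Il18-/- only, at 23.0 ± 3.98, and at least 1.53-fold higher before that error is counted. Uox, the urate oxidase gene, read 132.8 in Il18-/- and 56.9 in Il18+/+, 2.29-fold higher. Rgn, a calcium-binding gluconolactonase, differed by 0.98, Slco1b2, an organic anion transporter of hepatocytes, by 0.57, and Hal, which degrades histidine, by 0.92. Tdo2, the tryptophan dioxygenase, differed by 0.37 and Bhmt, a homocysteine methyltransferase, by 0.27, its 3 probes ranging from 0.00 to 0.49. Taking 8 pathway lists together and leaving out the 9 genes themselves, 57 of 92 genes were measured. Of these 57, 9 were at least 1.5-fold and 5 at least 2-fold higher, 1 was at least 1.5-fold lower, and the median difference was 0.09. Over all measured genes the shares were 1.68%, 0.642% and 2.57% in that order. The lists were set with earlier values of these arrays known, and no test was made.

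**Figure D2:**
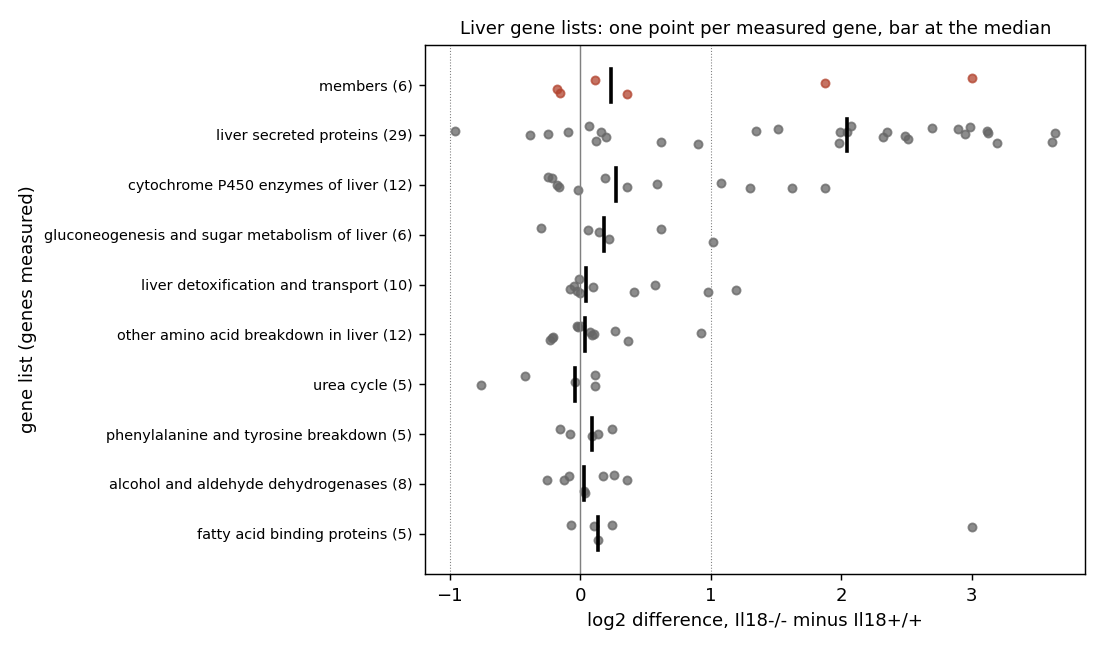
Log2 difference (Il18-/- minus Il18+/+) of every measured gene in 10 liver lists, 1 point a gene, with a bar at each median and dotted lines at 2-fold. The 6 measured enzyme and carrier genes (red) range from -0.17 (Cyp3a11, 1 of its 2 probes) to 3.01 with a median of 0.24, and the 29 secreted protein genes have a median of 2.05. The 9 genes also appear in the pathway lists they belong to.

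Genes of proteins that liver secretes into plasma were read on the same arrays for comparison. Of 35 such genes with a probe, 29 were measured, and 6 more were well above background in Il18-/- only, against 1.05% of all named genes. Of the 29, 19 were at least 2-fold higher in Il18-/-, which is 65.5%, beside 2 of 6 enzyme and carrier genes, which is 33.3%. Over all measured genes 0.642% reached 2-fold higher. The median difference was 2.05 for the secreted protein genes and 0.24 for the enzyme and carrier genes, 1.81 apart on the log2 scale, computed as -1.81 for enzymes minus secreted proteins. Without Cyp3a11 the enzyme and carrier genes had 2 of 5 at 2-fold, which is 40.0%, and a median of 0.36. Both lists were set with earlier values of these arrays known, and the difference between them was not tested. Alb, the albumin gene, read 286.6 in Il18-/- and 22.5 in Il18+/+, 12.5-fold higher. Mup3 read 231.3 in Il18-/- and 24.7 in Il18+/+, and Ambp, which encodes a protease inhibitor precursor, read 279.6 in Il18-/- and 31.3 in Il18+/+. The 2 probes of Mup20, a urinary protein gene with close copies, gave differences of 3.48 and 3.76.

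Of the secreted protein genes above background in Il18-/- only, Serpina3k had a bound of 7.80-fold higher and F2, the prothrombin gene, of 6.27-fold. Serpina1d, which has near-identical copies, had a bound of 5.38-fold by its brighter probe and 2-fold by its dimmer. These genes passed the background call through Il18-/- alone, so nothing is read from their direction. Their bounds hold for the processed signal only. The difference of Fabp1, 3.01, lay within the range of the 29 secreted protein genes, -0.96 to 3.64, and that of Cyp2e1, 1.88, lay below their median. The low end of that range was Ttr, which choroid plexus also makes, at 94211 in Il18-/- and 178976 in Il18+/+. It is named here after its value was seen, as are Vtn, Itih3 and Rbp4, which differed by 0.07, -0.10 and 0.20 and read levels above the array's 75th percentile in both genotypes. Named likewise are Fga, Apoa5 and Itih1, which differed by -0.24, 0.12 and 0.16 at levels below that percentile in both genotypes.

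Promoter windows of 27 secreted protein genes, 30 in all, were searched for the same motifs. The forkhead string was in 63.3% of them, against 20.5% of all windows, and the C/EBP string in 46.7%, against 10.8%. The TATA box was in 30.0%, against 13.6% of all windows, and the GC box in 6.67%, against 35.7%. None of the 30 held the HNF4 string, which only 0.475% of all windows hold. Among the 7 enzyme and carrier windows the C/EBP string was in 1, that of Fabp1, and the forkhead string, the TATA box and the GC box in 3 each. Some secreted protein genes are near-identical copies with like promoters, and no test was made of these shares. The motifs were chosen after the sequences had been seen, so nothing is read from a contrast between the lists.

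Markers of other cell types were read beside these genes, and their part in the result was not tested. With 1 pool per genotype, more cells of a type and more RNA per cell cannot be told apart. Beside the counts that follow, 20.8% of all 20660 named genes were well above background in neither genotype and 1.05% in Il18-/- only. Among 12 hepatocyte transcription factor genes, 5 were well above background in Il18-/- and 4 in Il18+/+, and their intensities, each divided by the array's 75th percentile, summed to 2.22 in Il18-/- and 2.29 in Il18+/+. Nr1i3, a nuclear receptor, supplied 1.13 in Il18-/- and 1.25 in Il18+/+ of these sums, and without it they were 1.09 in Il18-/- and 1.05 in Il18+/+, so the direction turned. The 4 measured factors all lay within 1.5-fold, with a median of -0.15: Nr1h4 differed by -0.26, Cebpa by -0.16, Nr1i3 by -0.15 and Prox1, which is also the dentate gyrus marker above, by 0.16. Hnf4a, the factor that names many liver promoter sites, was well above background in Il18-/- only, at 39.0 in Il18-/- and 9.04 in Il18+/+, at least 2.60-fold higher. Foxa1, Foxa2, Foxa3, Onecut1, Nr1i2 and Nr0b2 were not well above background in either genotype. Of 9 markers of other liver cells 3 were well above background in each genotype, and the list summed to 0.257 in Il18-/- and 0.254 in Il18+/+. Clec4f and Timd4 of Kupffer cells, Lrat of stellate cells and Krt19 and Epcam of bile ducts were not well above background in either. The secreted protein list summed to 206.9 in Il18-/- and 329.9 in Il18+/+, and without Ttr and Trf, set aside after their values were seen because brain tissue makes both, to 33.8 in Il18-/- and 19.6 in Il18+/+.

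Kidney and intestine also make several of the 9 genes. The same share, 20.8% of all named genes above background in neither genotype, stands beside the counts here. Of 10 kidney tubule markers 5 were well above background in Il18-/- and 4 in Il18+/+, with sums of 1.10 in each and a median difference of -0.05. Umod, Slc12a1, Slc12a3, Slc22a12 and Kap were not well above background in either. Slc5a2 was well above background in Il18-/- only, at least 1.51-fold higher. Of 8 intestinal markers with a probe 5 were well above background in each genotype, summing to 14.8 in Il18-/- and 11.4 in Il18+/+ with a median of -0.07. Alpi, Cdx2 and Cdh17 were not well above background in either. Lct, the lactase gene, supplied 14.0 in Il18-/- and 10.6 in Il18+/+, and the other 7 genes summed to 0.759 in Il18-/- and 0.835 in Il18+/+, the opposite direction. Macrophage and neutrophil genes had 7 of 11 above background in Il18-/- and 8 in Il18+/+, with sums of 21.0 in Il18-/- and 25.9 in Il18+/+ and a median of 0.22. Itgam, an integrin gene, supplied 19.9 in Il18-/- and 24.9 in Il18+/+ through 1 of its 3 probes, which read 42197 in Il18-/- and 51772 in Il18+/+. Without Itgam the list summed to 1.13 in Il18-/- and 0.928 in Il18+/+, so the direction turned. S100a9, the only measured member of that list at 2-fold, differed by 1.33. Of the other neutrophil genes, S100a8 differed by 0.96 and Camp by -0.15, and Ngp was not well above background in either genotype. Lyve1, a marker of some tissue macrophages, was well above background in Il18+/+ only, at 15.9 in Il18-/- and 37.0 in Il18+/+, at least 2.38-fold lower in Il18-/-. Cd163 and Retnla were not well above background in either genotype. Red blood cell genes summed to 123.7 in Il18-/- and 109.1 in Il18+/+ with a median of 0.16, and 6 of 7 were above background in each. Without Hba-a2, the brightest of them, they summed to 31.3 in Il18-/- and 27.8 in Il18+/+. All 15 choroid plexus genes were at least 1.5-fold lower in Il18-/-, against 2.57% of all measured genes. This list was also set with earlier results of these arrays known. Its genes had sums of 194.0 in Il18-/- and 386.4 in Il18+/+ and a median of -1.20. Without Ttr they summed to 61.3 in Il18-/- and 128.8 in Il18+/+.

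**Figure D3:**
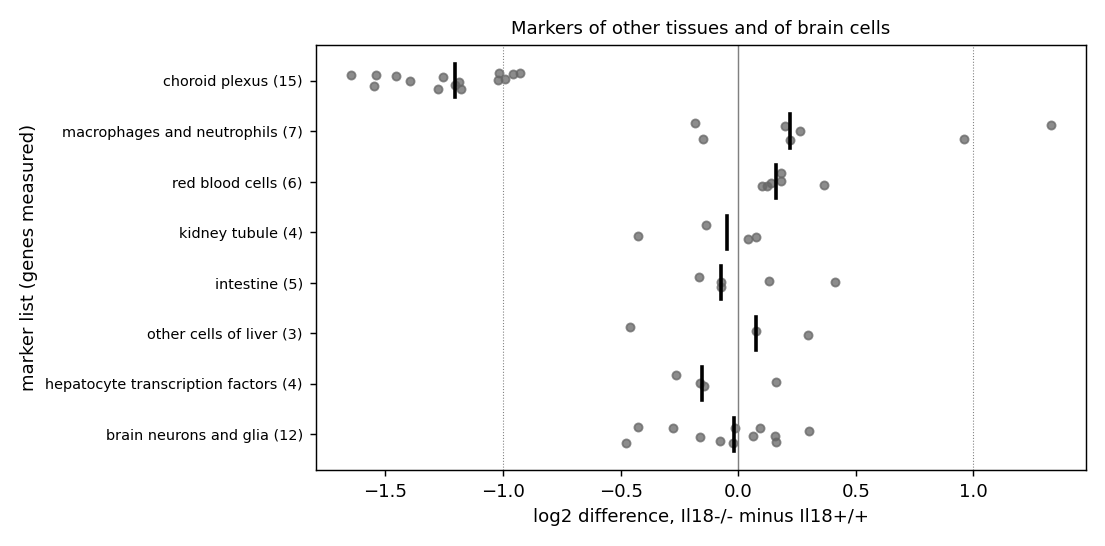
Log2 difference (Il18-/- minus Il18+/+) of the measured genes in 8 marker lists, 1 point a gene, with a bar at each median and dotted lines at 2-fold. Choroid plexus genes lie lower in Il18-/- with a median of -1.20, and the other medians lie between -0.15 and 0.22.

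Each probe was a single spot, so the surrounding spots on the glass were read as well. Within 4 rows and 2 columns of the spots of the 12 probes, the median difference of the neighbouring spots lay between -0.10 and 0.09. The Fabp1 spot had 42 neighbours, of which 2 were at least 1.5-fold higher and 3 at least 1.5-fold lower in Il18-/-. The Cyp2e1 spots had 0 neighbours each at least 1.5-fold higher, and 5 lower for the brighter probe and 2 for the dimmer. The Cyp3a11 spot that read higher had 0 neighbours at least 1.5-fold higher and 8 lower, of 41.

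Fabp1 and the brighter Cyp2e1 probe, both measured in each genotype, kept the direction of their difference under all 7 other ways of scaling and background correction, while its size varied. Fabp1 ranged from 1.97 to 3.08 and the brighter Cyp2e1 probe from 1.15 to 1.97. The dimmer Cyp2e1 probe ranged from 0.24 to 1.56 and the higher Cyp3a11 probe from 1.02 to 3.91. Both passed the background call through Il18-/- alone, so nothing is read from their direction. The lowest values came from the settings that start at the median spot signal, with normexp background correction or none. Scaling to the spike-in controls, which read 0.31 higher on the Il18-/- array after the main scaling, lowers every difference by that amount, and it turned both Ass1 probes to lower in Il18-/-, at -0.20 and -0.19. The Tat probe and the other Cyp3a11 probe were lower under all 7, from -0.46 to -0.09 and from -0.49 to -0.12. The Adh1 probe ranged from 0.05 with spike-in scaling to 0.44 with loess scaling.

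**Figure D4:**
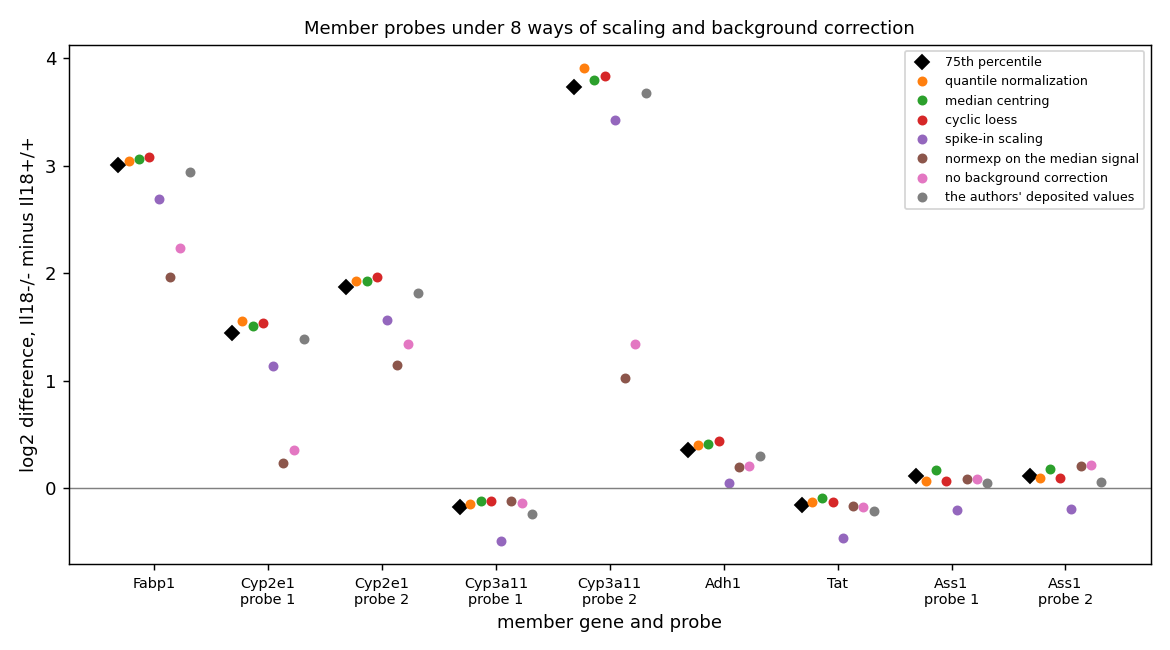
Log2 difference (Il18-/- minus Il18+/+) of the 9 probes well above background in Il18-/-, under the 75th percentile scaling (black diamonds) and 7 alternatives (coloured points). Fabp1 stays between 1.97 and 3.08, the dim probes Cyp2e1 probe 1 and Cyp3a11 probe 2, not well above background in Il18+/+, shrink most when no processed signal is used, and Ass1 changes side under the spike-in scaling.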

How the data were processed

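The deposited intensity values are the output of Agilent Feature Extraction 10.10.1.1, per the submitters' processing notes. Per the file headers, background subtraction and spatial detrending were done on each array, and the design's genome build is mm9. The arrays' 75th percentiles differ, so the values carry no scaling to a common percentile. The authors' deposited value table holds this intensity times a constant, which was 1.92 for Il18-/- and 2.05 for Il18+/+, with column medians of 139.5 and 151.5 in that order. It is linear and not centred, the basis of the constants is unknown, and it served as an alternative.

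Control spots (3671 of 62976) and outlier-flagged spots (177 on the Il18-/- array, 124 on the Il18+/+ array) were left out, and 0 spots were saturated. Each array's 75th percentile, 709.9 in Il18-/- and 694.8 in Il18+/+, was subtracted on the log2 scale. Probes were named by unversioned accession through RefSeq GRCm38.p6, which named 27235 probes and left 28446 unnamed. A few list genes are not reported here by name. A gene's difference is the mean over probes well above background on both arrays. With 1 array per genotype no test was made. Genes are counted at 1.5-fold and 2-fold. The 9 genes and all lists were chosen with earlier results of these data known. Named from each list were up to 4 genes with the largest difference and up to 3 above background on 1 array only with a bound of at least 1.5-fold, and other names were added after their values were seen. The calculations were tested on simulated data. Alternatives were quantile, median, loess and spike-in scaling, normexp (offset 50) and no background correction on the median signal, no filter or a stricter one for dim probes, using each gene's brightest probe, and the authors' values. Setting signals against the negative controls and leaving out Cyp3a11 or the brightest gene of a list were added after seeing the data. The calculations used R 4.3.3 with limma 3.58.1 and Python 3.11.15 with pandas 2.3.3, numpy 2.4.6 and matplotlib 3.10.9.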

Additional observations from a re-analysis of the deposited data

How the results depend on the processing

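Of 10 alternatives, 8 left 2 genes at 1.5-fold and 2 at 2-fold higher in Il18-/-. With no filter on dim probes both counts were 4, since Cyp3a11 and the dim Hpd then count, and with the stricter filter both were 1, since that filter leaves 4 of the genes. The median difference of the genes was 0.36 with no filter, -0.073 with spike-in scaling and -0.016 with the stricter filter. Leaving out Cyp3a11, chosen after seeing the data, kept both counts at 2, gave a median of 0.36 and put the gap to the secreted protein genes at -1.69. The median of the secreted protein genes was 1.37 with no background correction, 1.13 with normexp, 1.73 with spike-in scaling and 1.35 with the stricter filter. The gap between the medians, enzymes minus secreted proteins, was -1.19 with no background correction, -1.63 with no filter, -0.96 with normexp and -1.36 with the stricter filter. It kept its sign under all 10 and without Cyp3a11. Over all measured genes, 264 were at least 1.5-fold higher and 405 lower in Il18-/-. These were 311 and 324 with quantile, 320 and 317 with median and 339 and 271 with loess scaling. They were 127 and 1840 with spike-in scaling, 220 and 550 with the authors' values, 113 and 107 with normexp, 132 and 147 with no background correction, 815 and 1357 with no filter and 93 and 129 with the stricter one. At 2-fold the 101 and 71 became 66 and 254 with spike-in scaling, 49 and 22 with normexp, 61 and 34 with no background correction, 395 and 500 with no filter and 39 and 34 with the stricter filter. The causes were not tested beyond the change in genes counted. No paired analysis was possible because each genotype has 1 pool. Signals near background limit Cps1, Arg1, Hpd and the dim probes of Cyp2e1 and Cyp3a11.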
